A study of Homo sapiens with 12 samples.

Results

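The nuclear-encoded subunits of the mitochondrial respiratory chain and ATP synthase were followed in MCF10AT cells carrying an shRNA against EP300. Members were chosen by gene symbol alone: NDUFA, NDUFB, NDUFC, NDUFS and NDUFV genes for complex I, SDHA to SDHD for complex II, UQCR genes and CYC1 for complex III, the COX4 to COX8 genes for complex IV, and the ATP5F1, ATP5M and ATP5P genes for complex V, with NDUFAF assembly factors and pseudogenes left out. This gave 86 genes on 100 of the 29094 accession rows of the count table. After the filter on low counts 72 rows, each of a different gene, could be tested, and 67 of them averaged at least 1 CPM (counts scaled to library size, with TMM factors between libraries). MCF10AT is an established human mammary epithelial line transformed by HRasG12V, and all 12 libraries, controls included, carry that allele, a stable lentiviral shRNA and a history of puromycin selection. EP300 KD1 and EP300 KD2 express 2 independent hairpins against EP300, and NS1 and NS2 express non-silencing hairpins, with 3 libraries in each of the 4 groups. Which control belongs to which hairpin is not spelled out in the labels, so EP300 KD1 was set against NS1 and EP300 KD2 against NS2, by number. Nothing in the labels shows that replicates were separate cultures, and p-values therefore describe only library-to-library spread, possibly technical.

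The respiratory chain passes electrons from NADH (complex I) and succinate (complex II) through ubiquinone to complex III, by cytochrome c to complex IV and on to oxygen, and complex V, the ATP synthase, uses the resulting proton gradient to make ATP. Complexes I, III, IV and V combine subunits encoded by mitochondrial DNA with a larger number encoded in the nucleus, whereas complex II is wholly nuclear-encoded. The nuclear genes are transcribed through nuclear respiratory factors such as NRF1 and the ETS factor GABP, with YY1 and ESRRA, and are raised by the coactivator PPARGC1A (PGC-1alpha), which itself recruits acetyltransferases. EP300 encodes p300, an acetyltransferase that serves as a transcriptional coactivator. The mitochondrially encoded subunits have no row among those used here.

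The target of the hairpins was checked first. EP300 (NM_001429) measured 108, 106 and 108 CPM in EP300 KD1 libraries, against 172, 177 and 167 CPM in NS1 libraries, and 95.1, 99.95 and 92.3 CPM in EP300 KD2 libraries, against 165, 180.3 and 177 CPM in NS2 libraries. All shRNA libraries lay below all libraries of their control, with log2 changes of -0.68 ± 0.03 with the first hairpin (adjusted p = 2.6e-12) and -0.86 ± 0.04 with the second (adjusted p = 1.1e-13). Errors of log2 changes are SEs, and adjusted p-values are from edgeR's quasi-likelihood test with Benjamini-Hochberg adjustment over all 13424 rows tested (13154 gene symbols, called genes here and below), with 0.05 as the threshold. Library totals ran from 31396653 to 35024772 counts in EP300 KD1, from 31582157 to 40700951 in EP300 KD2, from 32674926 to 45606950 in NS1 and from 32112613 to 33951970 in NS2.

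The cell type was checked with marker lists. Summed over 6 of 6 mammary basal epithelial markers, levels ran from 3330 to 3370 CPM in EP300 KD1, against 4740 to 4810 in NS1, and from 2540 to 2590 in EP300 KD2, against 5550 to 5630 in NS2. With the first hairpin 4 of them were called lower and 1, ITGA6, higher (log2 change 0.09). All 6 were called lower with the second, ITGA6 by -0.77. The 6 general epithelial markers, of which KRT8 has only residual counts, summed to 1400 to 1440 CPM in EP300 KD1, against 2150 to 2190 in NS1, and to 1660 to 1670 in EP300 KD2, against 2300 to 2310 in NS2. Of their 6 tested rows, 5 were called lower and 1 higher (0.60) with the first hairpin, and 5 lower and 0 higher with the second. For 8 fibroblast markers, of which 4 were tested and COL1A2, COL3A1 and LUM were at 0 in every library, the sums were 109 to 112 CPM in EP300 KD1, against 56.4 to 59.2 in NS1, and 56.4 to 58.3 in EP300 KD2, against 48.5 to 52.8 in NS2. Leukocyte markers (3 of 7 tested) summed to 67.3 to 74.5 CPM in EP300 KD1, against 52.1 to 63.2 in NS1, and to 37.8 to 40.1 in EP300 KD2, against 65.7 to 67.4 in NS2. This sum joins CD68, called higher with both hairpins (log2 changes of 1.67 and 0.37), and CD14, called lower with both (-0.65 and -1.62). ITGAM was not called with either. Endothelial markers (2 of 4 tested) summed to 9.43 to 11.2 CPM in EP300 KD1, against 28.7 to 32.6 in NS1, and to 5.33 to 6.04 in EP300 KD2, against 38.2 to 40.5 in NS2. Of these, PECAM1 was lower with both hairpins (-1.60 and -2.84). KDR, under 1 CPM, was called higher with the first alone (0.71 and 0.32). Markers of HEK293 or neural cells (2 of 5 tested, INA at 0) summed to 146 to 166 CPM in EP300 KD1, against 56.7 to 63.9 in NS1, and to 138 to 145 in EP300 KD2, against 48.6 to 51.7 in NS2. The part of these shifts in the results below was not tested. In bulk RNA, fewer cells with active respiratory genes and less respiratory RNA per cell cannot be told apart.

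Most respiratory chain genes were slightly lower with either EP300 hairpin. Among the 72 tested, 58 fell with the first hairpin and 2 rose, where 32.3% of all genes tested were called lower and 32.6% higher. With the second hairpin 52 fell and 0 rose, against 29.9% called lower and 27.9% called higher over all genes. At an unadjusted p under 0.05, and likewise in limma-voom and DESeq2, no member was higher with the second hairpin. The members' median log2 change was -0.18 with EP300 KD1, a fall of 11.8%, and -0.16 with EP300 KD2, a fall of 10.6%, while the medians over all genes were -0.0058 and -0.0021. Lower calls with both hairpins, each against its own control, covered 46 members, or 63.9% of those tested, whereas 17.3% of all genes were so called. These 46 are 79.3% of the first hairpin's lower calls and 88.5% of the second's. Over all genes, 2329 were called lower by both, out of 4341 lower calls with the first hairpin and 4018 with the second.

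The falls were shallow and even across libraries. Of the 58 lower calls of the first hairpin, 39 were falls of less than 15%, 16 lay between 15% and 25% and 3 exceeded 25%, with a range of 3.88% to 28.0%. Of the 52 lower calls of the second hairpin, 41 were under 15%, 9 lay between 15% and 25% and 2 exceeded 25%, with a range of 4.78% to 65.9%. In 54 members all 3 EP300 KD1 libraries lay below all 3 NS1 libraries, a pattern that 33.8% of all tested genes showed. In 55 members all 3 EP300 KD2 libraries lay below all 3 NS2 libraries, against 32.6% of all tested genes. Summed over the members, the share of each library's counts was 1.08%, 1.06% and 1.09% in EP300 KD1, against 1.22%, 1.2% and 1.23% in NS1. The same share was 1.09%, 1.08% and 1.1% in EP300 KD2, against 1.19%, 1.16% and 1.18% in NS2, so that neither pair of groups overlapped.

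**Figure D1:**
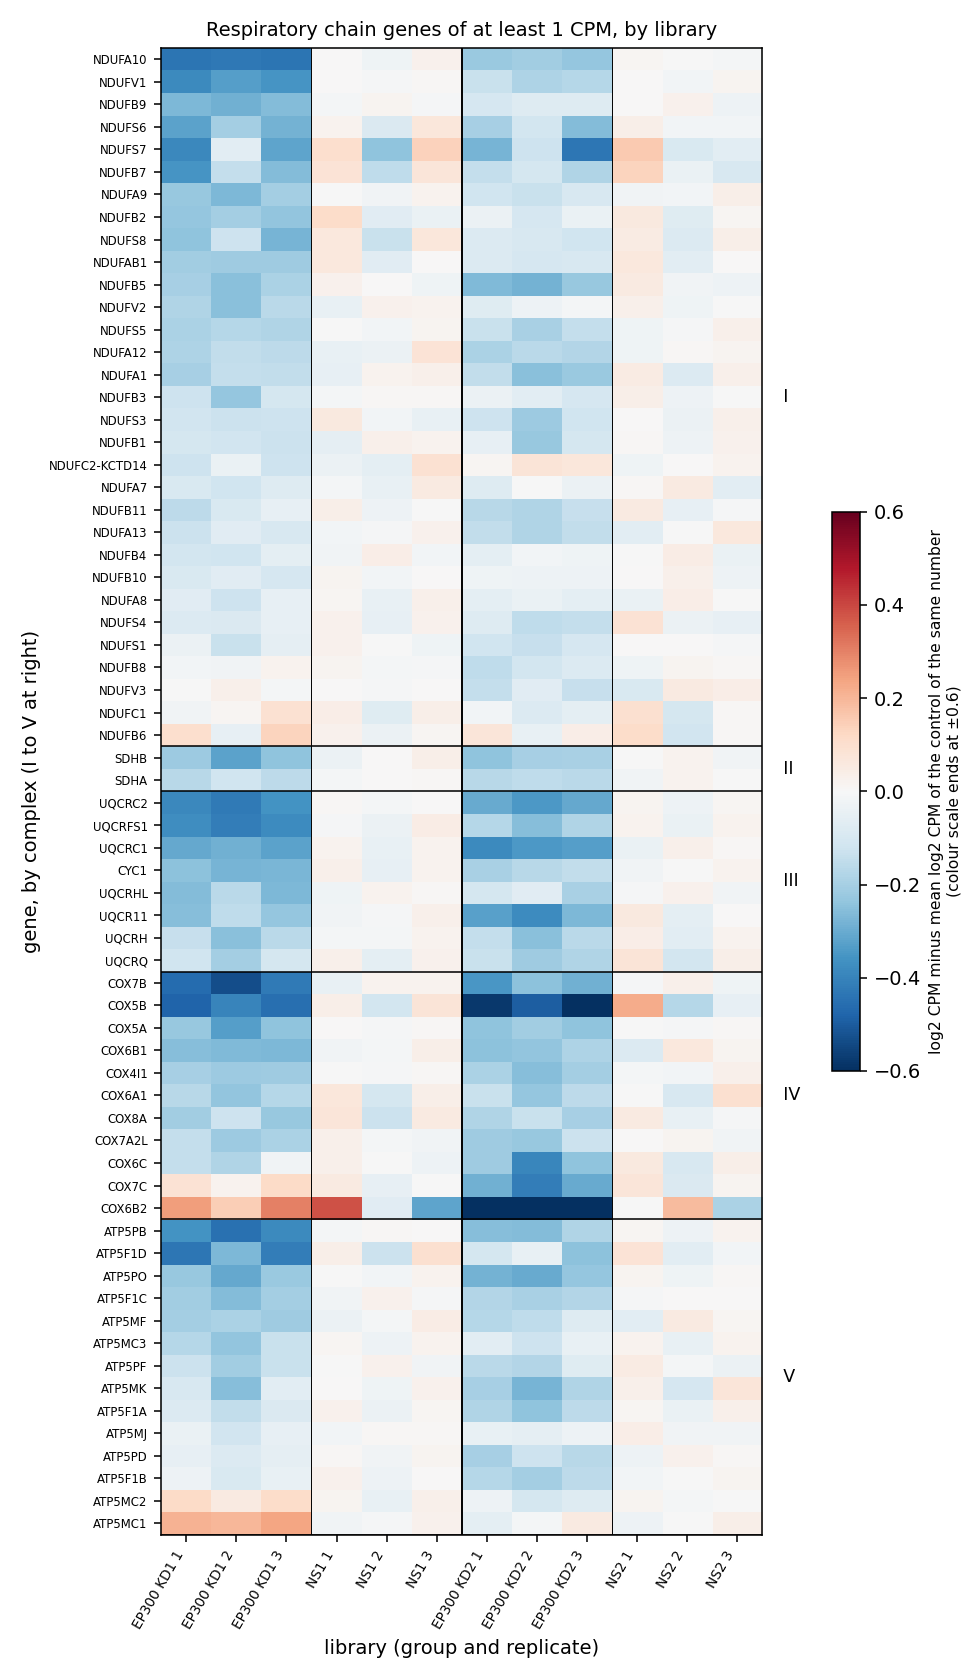
Heat map of 66 respiratory chain genes of at least 1 CPM (rows, grouped by complex and ordered by the first hairpin's change) in 12 libraries (columns). Colour gives log2 CPM minus the mean log2 CPM of the NS group of the same number. Blue fills most rows of the EP300 KD1 and EP300 KD2 columns, while ATP5MC1 and ATP5MC2 are red with EP300 KD1 and COX7C and COX6B2 are blue with EP300 KD2 alone.

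The promoters of the members have been studied for NRF1, ETS and YY1 binding, so the windows of a few members are shown. No rule chose the members printed, which were picked with their values in view, so they do not show how letters and changes go together. RefSeq promoter windows (GRCh38.p14, 250 bases before to 50 after the annotated start) matched 60 of the 72 tested members. The letters searched, on both strands, were GCGCATGCG for NRF1, CCGGAAG for an ETS factor and AAGATGGCG for YY1. These letters do not contain one another, although the NRF1 letters are close to a palindrome and the same bases can match on both strands. GCGCATGCG occurred in 8 of the 60 member windows (13.3%) and in 2.1% of all 27305 windows. CCGGAAG occurred in 17 member windows (28.3%) and in 10.7% of all windows, and AAGATGGCG in 8 member windows (13.3%) and in 1.85% of all. Among the 14990 windows of coding genes in the count table the shares were 2.82% for GCGCATGCG, 14.6% for CCGGAAG and 2.85% for AAGATGGCG. Any of these was present in 28 member windows (46.7%) and in 13.6% of all windows. Of the 17 members with CCGGAAG, 17 fell with the first hairpin and 16 with the second, and of the 43 without it 30 and 26 fell. Of the 8 with GCGCATGCG 7 and 6 fell, and of the 52 without it 40 and 36. Of the 8 with AAGATGGCG 6 and 6 fell, and of the 52 without it 41 and 36. Of all tested genes, with or without the letters, 32.3% were called lower with the first hairpin and 29.9% with the second. Median log2 changes with and without CCGGAAG were -0.18 and -0.15 with the first hairpin, and -0.18 and -0.13 with the second. No test compared these classes, and calls among non-member genes with these letters were not counted. A match is a run of letters, not a measured binding site. The 250 bases upstream of the start are printed 5′ to 3′ in the direction of the gene for 3 members with CCGGAAG, for NDUFS7 with the NRF1 letters on the opposite strand, and for UQCRC2, ATP5MC1 and COX6B2, whose printed bases hold none of these letters. Capitals mark the letters matched wholly within the printed bases, read CTTCCGG or CGCATGCGC where the match is on the other strand. Matches that reach past these bases are not marked. They are CCGGAAG from base -5 in COX5B, and AAGATGGCG from base 11 in SDHB and base 18 in NDUFS7, counted from the start.
COX5B, chr2:97645812-97646061, plus strand: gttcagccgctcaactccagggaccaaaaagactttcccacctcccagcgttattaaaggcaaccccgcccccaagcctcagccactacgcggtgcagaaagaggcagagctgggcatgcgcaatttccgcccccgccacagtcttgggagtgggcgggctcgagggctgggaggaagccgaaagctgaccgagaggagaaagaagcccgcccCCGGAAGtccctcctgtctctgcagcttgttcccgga
UQCR11, chr19:1605463-1605712, minus strand: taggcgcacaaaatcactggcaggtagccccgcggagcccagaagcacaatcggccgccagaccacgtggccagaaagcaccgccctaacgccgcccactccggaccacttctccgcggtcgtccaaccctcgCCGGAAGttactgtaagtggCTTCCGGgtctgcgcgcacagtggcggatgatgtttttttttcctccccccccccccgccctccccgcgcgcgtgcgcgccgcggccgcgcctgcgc
SDHB, chr1:17054033-17054282, minus strand: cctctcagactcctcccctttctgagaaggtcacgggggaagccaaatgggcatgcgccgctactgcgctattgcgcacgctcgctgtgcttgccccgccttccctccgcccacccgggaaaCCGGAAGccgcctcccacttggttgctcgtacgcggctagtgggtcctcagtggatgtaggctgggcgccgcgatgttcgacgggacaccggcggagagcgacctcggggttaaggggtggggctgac
NDUFS7, chr19:1383657-1383906, plus strand: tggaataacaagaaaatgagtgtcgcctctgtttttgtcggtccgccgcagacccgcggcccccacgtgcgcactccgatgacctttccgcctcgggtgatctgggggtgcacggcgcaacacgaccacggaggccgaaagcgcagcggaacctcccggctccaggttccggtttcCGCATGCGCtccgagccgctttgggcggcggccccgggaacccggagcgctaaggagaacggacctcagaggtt
UQCRC2, chr16:21953111-21953360, plus strand: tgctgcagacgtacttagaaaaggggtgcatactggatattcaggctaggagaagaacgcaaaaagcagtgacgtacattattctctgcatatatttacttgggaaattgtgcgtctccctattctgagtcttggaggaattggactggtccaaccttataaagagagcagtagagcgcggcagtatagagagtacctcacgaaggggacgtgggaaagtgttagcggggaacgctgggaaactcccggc
ATP5MC1, chr17:48892537-48892786, plus strand: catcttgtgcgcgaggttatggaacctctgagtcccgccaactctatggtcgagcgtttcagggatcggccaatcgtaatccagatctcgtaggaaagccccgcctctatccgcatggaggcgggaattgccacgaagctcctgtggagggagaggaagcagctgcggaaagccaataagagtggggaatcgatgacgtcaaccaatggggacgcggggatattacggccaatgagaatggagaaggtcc
COX6B2, chr19:55354720-55354969, minus strand: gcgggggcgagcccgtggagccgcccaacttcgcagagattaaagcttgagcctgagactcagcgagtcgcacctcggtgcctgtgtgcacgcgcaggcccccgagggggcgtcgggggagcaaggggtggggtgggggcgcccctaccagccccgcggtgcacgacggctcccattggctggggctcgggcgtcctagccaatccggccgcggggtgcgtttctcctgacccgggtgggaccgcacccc
Genes that fell were found both with and without these letters. COX5B and UQCR11, with CCGGAAG, and UQCRC2, without, all fell with both hairpins. ATP5MC1, which rose with the first hairpin, and COX6B2, which fell with the second alone, had none in the bases shown. ATP5MC2, the other member that rose with the first hairpin, has the NRF1 letters on the opposite strand of its window, not printed here.

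Complex I, which takes electrons from NADH, had 35 tested members, of which 27 fell and 0 rose with the first hairpin and 20 fell and 0 rose with the second. The median log2 changes were -0.15 and -0.12. Of all tested genes, 32.3% were lower and 32.6% higher with the first hairpin, and 29.9% lower and 27.9% higher with the second. The 7 core subunits, which carry the flavin, the iron-sulphur clusters and the quinone site, all fell with the first hairpin (median -0.22) and 5 of them with the second (median -0.15). Among the 28 accessory subunits 20 and 15 fell, with medians of -0.13 and -0.12. No difference between core and accessory subunits was tested.

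NDUFA10, an accessory subunit on the matrix side (NM_004544; chromosome 2, 239892442 to 240025342; coordinates are hg38 throughout), had the largest called fall of complex I with the first hairpin. It measured 118, 119 and 118 CPM in EP300 KD1 libraries, against 160.2, 157 and 163 CPM in NS1 libraries. With the second hairpin it measured 130.0, 131 and 129 CPM in EP300 KD2 libraries, against 153, 151 and 151 CPM in NS2 libraries. The groups did not overlap in either pair. Its log2 changes were -0.44 ± 0.02 with EP300 KD1 (adjusted p = 5.01e-12) and -0.22 ± 0.02 with EP300 KD2 (adjusted p = 1.26e-07), and the fall was smaller with the second hairpin (difference 0.22 ± 0.03, adjusted p = 2.15e-05).

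NDUFV1, the flavin-bearing core subunit that binds NADH (NM_007103; chromosome 11, 67606936 to 67612554), showed the same order. It measured 170.4, 176 and 174 CPM in EP300 KD1 libraries, against 222, 220.4 and 223 CPM in NS1 libraries, and 194, 187 and 189 CPM in EP300 KD2 libraries, against 213, 210.1 and 215 CPM in NS2 libraries. Every shRNA library lay below every library of its control. The log2 changes were -0.36 ± 0.02 (adjusted p = 1.1e-10) and -0.16 ± 0.02 (adjusted p = 6.13e-06), with a difference of 0.19 ± 0.03 between the hairpins (adjusted p = 7.78e-05). NDUFB9, an accessory subunit of the membrane arm (NM_001278646), likewise fell by 17.2% with the first hairpin (adjusted p = 9.28e-09) and by 5.76% with the second (adjusted p = 0.005). Scaled by library totals alone, its log2 change with the second hairpin was -0.02 and did not pass (adjusted p = 0.556). Nor did it pass with upper-quartile factors, no filter or the length trend removed (adjusted p between 0.0578 and 0.393) or without NS2 replicate 2 (-0.07, adjusted p = 0.0501).

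NDUFS7, the core subunit with the iron-sulphur cluster nearest the quinone (NM_024407; chromosome 19, 1383907 to 1395584), was the most variable of the core subunits. It measured 39.3, 49.2 and 41.2 CPM in EP300 KD1 libraries, against 55.1, 43.4 and 56.6 CPM in NS1 libraries, so that the groups overlapped, and 41.6, 46.3 and 37.3 CPM in EP300 KD2 libraries, against 56.1, 47.2 and 48.3 CPM in NS2 libraries, without overlap. Its log2 changes of -0.26 ± 0.10 (adjusted p = 0.0223) and -0.27 ± 0.10 (adjusted p = 0.0208) passed narrowly. Without NS1 replicate 3 the first was -0.19 (adjusted p = 0.142), and without NS2 replicate 1 the second was -0.19 (adjusted p = 0.134). NS1 replicate 1, EP300 KD1 replicates 1 and 3, and EP300 KD2 replicates 1 and 3 each ended a call as well when left out, with adjusted p between 0.0558 and 0.109. In DESeq2 the adjusted p-values were 0.0844 and 0.094, and scaling by totals alone or by the upper quartile gave 0.0809 and 0.0644 for the second. NDUFS1, the largest subunit of the NADH-oxidising arm, varied less, with log2 changes of -0.07 ± 0.03 and -0.12 ± 0.03 (adjusted p = 0.0196 and adjusted p = 0.000776).

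A minority of complex I genes was not called with either hairpin. NDUFB6 and NDUFC1, accessory subunits of the membrane arm, had log2 changes of 0.06 ± 0.05 and 0.03 ± 0.05 with the first hairpin (adjusted p = 0.295 and adjusted p = 0.646) and of 0.02 ± 0.05 and -0.05 ± 0.05 with the second (adjusted p = 0.734 and adjusted p = 0.355). NDUFB8 and NDUFV3 fell with the second hairpin, by 7.61% and 7.9%, and were not called with the first. The row counted for NDUFC2 is its read-through transcript with KCTD14, and it fell by 6.68% with the first hairpin and was not called with the second. NDUFB6, NDUFC1, NDUFB8, NDUFV3, NDUFC2-KCTD14 and NDUFS1 are not covered by the naming rule and were picked with their values in view.

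Complex II, succinate dehydrogenase, could be followed only in its catalytic part. SDHB, the iron-sulphur subunit (NM_003000; chromosome 1, 17018722 to 17054032), measured 188, 175 and 185 CPM in EP300 KD1 libraries, against 214, 219 and 224 CPM in NS1 libraries, and 187, 192 and 193 CPM in EP300 KD2 libraries, against 220.5, 224 and 218 CPM in NS2 libraries. SDHA, the flavoprotein that oxidises succinate (NM_004168; chromosome 5, 218320 to 268746), measured 218, 226 and 219.8 CPM in EP300 KD1 libraries, against 243, 246 and 246 CPM in NS1 libraries, and 213, 216 and 214 CPM in EP300 KD2 libraries, against 236, 243 and 239.6 CPM in NS2 libraries. Both genes were lower in every shRNA library than in any library of the matching control. SDHB had log2 changes of -0.26 ± 0.03 and -0.21 ± 0.03 (adjusted p = 1.45e-07 and adjusted p = 3.05e-06), and SDHA of -0.15 ± 0.02 and -0.16 ± 0.02 (adjusted p = 1.27e-05 and adjusted p = 5.1e-06). The rows of the membrane anchors SDHC and SDHD held 0 and at most 6 counts in any library, so that their levels were not measured.

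Complex III, which oxidises ubiquinol and reduces cytochrome c, fell in 8 of 9 tested members with each hairpin, with median log2 changes of -0.23 and -0.18. The shares called lower over all tested genes were 32.3% and 29.9%. The core proteins UQCRC1 and UQCRC2, which face the matrix and stabilise the complex, were among the most lowered members with both hairpins. UQCRC1 (NM_003365; chromosome 3, 48599002 to 48609646) measured 327, 331 and 323 CPM in EP300 KD1 libraries, against 409.8, 392 and 409.8 CPM in NS1 libraries, and 299, 306 and 309 CPM in EP300 KD2 libraries, against 379, 398 and 391 CPM in NS2 libraries. UQCRC2 (NM_003366; chromosome 16, 21953361 to 21983660) measured 307, 299 and 313 CPM in EP300 KD1 libraries, against 404, 398 and 402 CPM in NS1 libraries, and 308, 299 and 308 CPM in EP300 KD2 libraries, against 384, 373 and 384 CPM in NS2 libraries. No library overlapped its control group in either gene. UQCRC1 had log2 changes of -0.30 ± 0.03 and -0.35 ± 0.03 (adjusted p = 3.59e-09 and adjusted p = 4.99e-10), and UQCRC2 of -0.39 ± 0.02 and -0.32 ± 0.02 (adjusted p = 3.14e-11 and adjusted p = 8.45e-10). The difference between the hairpins did not pass for either gene (-0.05 ± 0.04 and 0.07 ± 0.03, adjusted p = 0.267 and adjusted p = 0.079), although that of UQCRC2 passed with RLE or upper-quartile factors, library totals, no filter or DESeq2 (0.09 to 0.14, adjusted p between 0.00149 and 0.0294) and without EP300 KD1 replicate 3 (0.09, adjusted p = 0.0473).

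The redox subunits of complex III fell as well. UQCRFS1, the Rieske iron-sulphur protein (NM_006003; chromosome 19, 29205320 to 29213151), measured 148, 144 and 147 CPM in EP300 KD1 libraries, against 190.3, 187 and 197 CPM in NS1 libraries, and 160.3, 151 and 159 CPM in EP300 KD2 libraries, against 184, 176 and 183 CPM in NS2 libraries. The shRNA libraries again lay wholly below their controls, and the fall was steeper with the first hairpin (-0.39 ± 0.03 against -0.20 ± 0.03, difference 0.19 ± 0.04, adjusted p = 0.000919). CYC1, the gene of cytochrome c1 (NM_001916), had log2 changes of -0.27 ± 0.03 and -0.17 ± 0.03 (adjusted p = 2.5e-08 and adjusted p = 9.97e-06). UQCR11, a small subunit of the complex (NM_006830; chromosome 19, 1597169 to 1605462), measured 68, 73.1 and 69 CPM in EP300 KD1 libraries, against 80.02, 80.6 and 82.8 CPM in NS1 libraries, and 64.6, 62.3 and 67.2 CPM in EP300 KD2 libraries, against 84.3, 77.7 and 81.2 CPM in NS2 libraries. Its log2 changes were -0.21 ± 0.04 and -0.33 ± 0.04 (adjusted p = 4.47e-05 and adjusted p = 3.27e-07), and neither set overlapped its control. UQCRH, the hinge protein between cytochromes c1 and c, fell by 11.9% and 12%. UQCRHL, an intronless near-copy of UQCRH, fell by 14.7% and 7.98%, but its reads cannot be told securely from those of UQCRH, and its second change did not pass with library totals, upper-quartile factors, no filter or DESeq2 (-0.11 to -0.05, adjusted p between 0.0736 and 0.287). Left out in turn, NS2 replicate 2 and EP300 KD2 replicate 3 also ended that call of UQCRHL (-0.10 and -0.09, adjusted p = 0.0776 and 0.0875).

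Complex IV, cytochrome c oxidase, had 11 tested members, of which 9 fell and 0 rose with the first hairpin and 11 fell with the second, with medians of -0.19 and -0.23. The shares called lower over all tested genes were 32.3% and 29.9%. COX5B, a zinc-binding subunit on the matrix side (NM_001862; chromosome 2, 97646062 to 97648383), was the most lowered of the members called lower with both hairpins when ranked by the smaller change. It measured 104, 110.3 and 106 CPM in EP300 KD1 libraries, against 148, 134 and 153 CPM in NS1 libraries, and 90.5, 96 and 89 CPM in EP300 KD2 libraries, against 158, 119.9 and 130.4 CPM in NS2 libraries. The controls spread widely, yet every shRNA library lay below every library of its control. The log2 changes were -0.45 ± 0.07 (adjusted p = 1.32e-05) and -0.57 ± 0.07 (adjusted p = 1.11e-06), and the hairpins did not differ detectably (difference -0.12 ± 0.10, adjusted p = 0.341).

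COX7B, a small transmembrane subunit (NM_001866; chromosome X, 77899468 to 77907376), measured 125, 119 and 128 CPM in EP300 KD1 libraries, against 167, 175 and 175 CPM in NS1 libraries, and 117, 126 and 122 CPM in EP300 KD2 libraries, against 148, 152 and 146 CPM in NS2 libraries. Both sets lay below their controls without overlap, with log2 changes of -0.47 ± 0.03 (adjusted p = 2.03e-10) and -0.29 ± 0.03 (adjusted p = 2.61e-07). The difference of 0.18 ± 0.05 between the hairpins (adjusted p = 0.00315) stands beside a difference between the controls themselves, since COX7B was lower in NS2 than in NS1 (-0.21 ± 0.03, adjusted p = 6.37e-05). With the trend on transcript length removed, the hairpin difference fell short of the threshold at 0.11 (adjusted p = 0.0815). COX4I1, the ubiquitous form of the regulatory subunit that can bind ATP (NM_001861; chromosome 16, 85799695 to 85807068), had nearly equal changes of -0.21 ± 0.02 and -0.22 ± 0.02 (adjusted p = 1.43e-07 and adjusted p = 1.32e-07). COX8A, the ubiquitous form of a further small subunit, fell by 12.3% and 11.2%, and COX6C, a further transmembrane subunit, by 7.42% and 17.7%. The first call of COX6C was marginal (adjusted p = 0.0473). It ended when any of 8 libraries was left out: each of the NS1 replicates, NS2 replicates 1 and 3, EP300 KD1 replicates 1 and 2, and EP300 KD2 replicate 3. Its log2 change then lay between -0.12 and -0.08. It ended too with upper-quartile factors, library totals or the length trend removed (adjusted p between 0.0509 and 0.161).

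COX7C and COX6B2 fell with the second hairpin and were not called with the first, although the first result of both depended on the settings given below. COX7C, a small transmembrane subunit (NM_001867; chromosome 5, 86617941 to 86620962), measured 199.5, 191 and 204 CPM in EP300 KD1 libraries, against 195, 182 and 188 CPM in NS1 libraries. In the other set it measured 192, 175 and 189.5 CPM in EP300 KD2 libraries, against 245, 220.2 and 236 CPM in NS2 libraries. The first pair of groups overlapped, and in the second all EP300 KD2 libraries lay below NS2. The log2 changes were 0.07 ± 0.04 (adjusted p = 0.12) and -0.34 ± 0.04 (adjusted p = 7.3e-07), with a difference of -0.41 ± 0.06 (adjusted p = 7.44e-06). NS2 stood above every other group, with 0.31 ± 0.04 against NS1 (adjusted p = 1.03e-05), so the size of the second change depends on which control is used. Against both controls together the change with EP300 KD1 was -0.08 (adjusted p = 0.0433), and with the length trend removed the change against NS1 was 0.13 and passed (adjusted p = 0.00452).

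COX6B2, a form of subunit 6B best known from testis (NM_144613; chromosome 19, 55349704 to 55354719), was expressed at the limit of the 1 CPM class. It measured 1.57, 1.46 and 1.63 CPM in EP300 KD1 libraries, against 1.72, 1.26 and 1.06 CPM in NS1 libraries, and 0.547, 0.494 and 0.617 CPM in EP300 KD2 libraries, against 1.61, 1.84 and 1.41 CPM in NS2 libraries. The EP300 KD2 values lay below those of every other group. The log2 change was -1.55 ± 0.20 with the second hairpin (adjusted p = 2.06e-06), a 2.93-fold fall, and 0.22 ± 0.18 with the first (adjusted p = 0.287), with a difference of -1.77 ± 0.27 (adjusted p = 2e-05). Without NS1 replicate 1 the first value was 0.43 and passed (adjusted p = 0.0418).

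The ubiquitous counterpart COX6B1 (NM_001863; chromosome 19, 35648323 to 35658782) fell with both hairpins, by 16.8% and 14.4% (adjusted p = 4.41e-07 and adjusted p = 5e-06). The rows of the other tissue-restricted forms were at or near 0: COX4I2, COX7A1, COX7B2 and COX8C had 0 counts in all libraries and COX6A2 had 1 count in all. A count of 0 allows up to 0.0956 CPM (3 counts) of reads assigned to such a row in the shallowest library. Rows of some subunits used by every respiring cell were at 0 too, as given below, so these zeros do not show that the genes were silent. COX6A1, the ubiquitous counterpart of COX6A2, fell by 12.6% and 11.4%, although with library totals the second change did not pass (-0.11, adjusted p = 0.0589). COX7A2L, which helps join complexes III and IV into supercomplexes, fell by 11.8% and 12.3% (adjusted p = 2.95e-05 and adjusted p = 2.32e-05).

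NDUFA4 and NDUFA4L2 are listed under the RefSeq symbols COXFA4 and COXFA4L2, which reflects the place of NDUFA4 in complex IV, and so are not counted among the members. COXFA4 measured 164, 154 and 168 CPM in EP300 KD1 libraries, against 169, 162 and 171 CPM in NS1 libraries, and 139, 133 and 137 CPM in EP300 KD2 libraries, against 149.9, 154 and 157 CPM in NS2 libraries. It did not pass with the first hairpin (-0.05 ± 0.03, adjusted p = 0.203) and fell with the second (-0.17 ± 0.03, adjusted p = 0.000168). COXFA4L2, a paralogue induced by hypoxia, was low, with 0.545, 0.631 and 0.813 CPM in EP300 KD1 libraries, against 0.525, 0.43 and 0.817 CPM in NS1 libraries, and 0.19, 0.192 and 0.185 CPM in EP300 KD2 libraries, against 0.758, 0.692 and 0.584 CPM in NS2 libraries. Its values in EP300 KD2 lay below every other library, with a log2 change of -1.82 ± 0.31 (adjusted p = 6e-05), against 0.13 ± 0.25 for the first hairpin (adjusted p = 0.696).

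**Figure D2:**
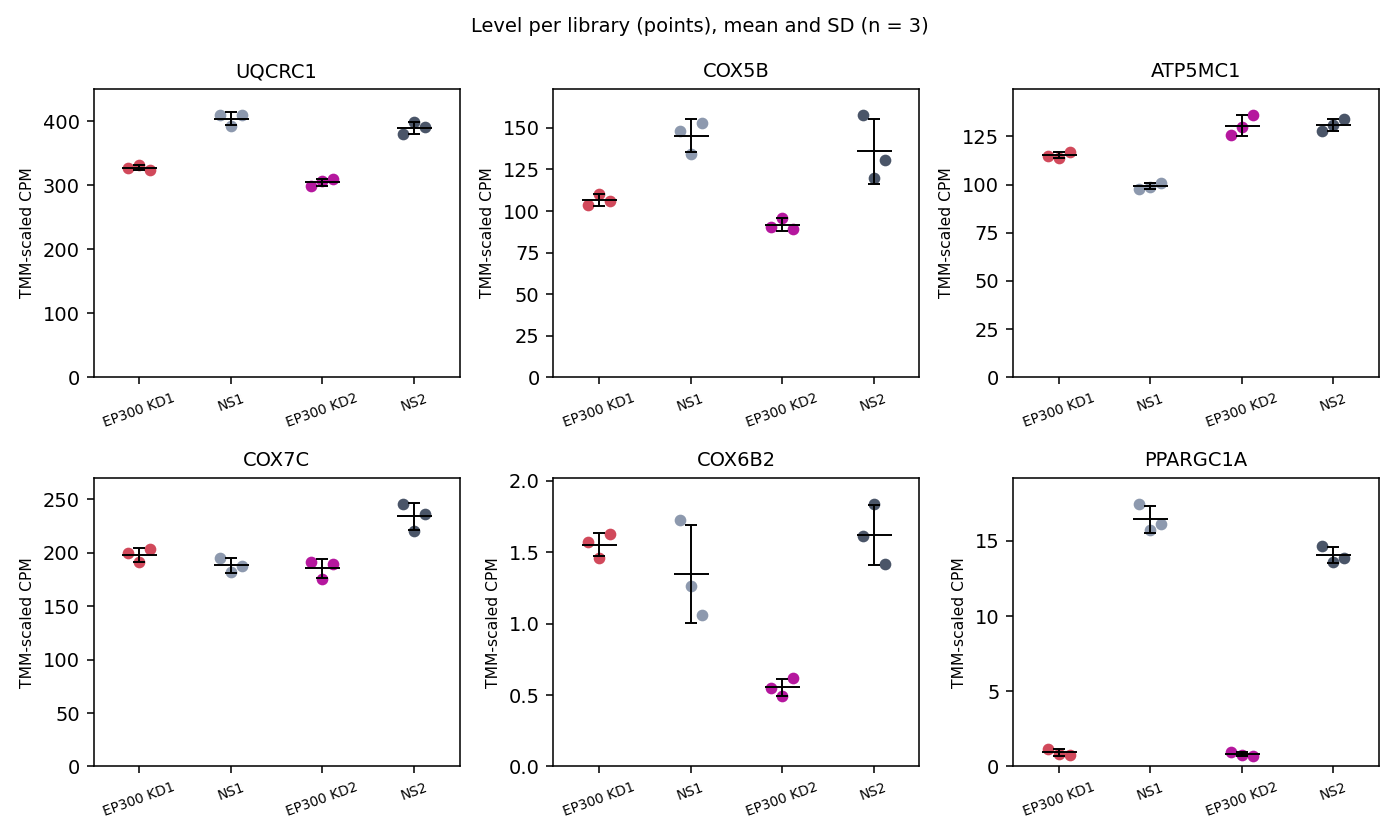
TMM-scaled CPM of 6 genes in each library (points), with the group mean and SD (n = 3), for EP300 KD1, NS1, EP300 KD2 and NS2 from left to right. UQCRC1 and COX5B are lower in both EP300 shRNA groups, ATP5MC1 is higher in EP300 KD1 than in NS1 and near 130 CPM in both EP300 KD2 and NS2, COX7C and COX6B2 are lower in EP300 KD2 than in NS2, and PPARGC1A is close to 1 CPM in both shRNA groups.

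Complex V had 15 tested members, of which 12 fell and 2 rose with the first hairpin and 11 fell and 0 rose with the second, with medians of -0.16 and -0.14. The shares over all tested genes were 32.3% lower and 32.6% higher with the first hairpin, and 29.9% lower and 27.9% higher with the second. The largest called falls of the complex were those of ATP5PB with the first hairpin and of ATP5PO with the second, both subunits of the stator, which holds the catalytic head still against the turning rotor. ATP5PB, the b subunit (NM_001688; chromosome 1, 111449464 to 111462773), measured 251, 236 and 247 CPM in EP300 KD1 libraries, against 319, 324 and 323 CPM in NS1 libraries, and 262, 261 and 276 CPM in EP300 KD2 libraries, against 315, 306 and 318 CPM in NS2 libraries. ATP5PO, the subunit at the top of the stator that confers oligomycin sensitivity (NM_001697; chromosome 21, 33903453 to 33915804), measured 215, 203 and 215 CPM in EP300 KD1 libraries, against 251, 248 and 255 CPM in NS1 libraries, and 193, 190.0 and 199 CPM in EP300 KD2 libraries, against 237, 230.4 and 235 CPM in NS2 libraries. Neither gene had an shRNA library within the range of its control. ATP5PB had log2 changes of -0.40 ± 0.03 and -0.23 ± 0.03 (adjusted p = 2.74e-10 and adjusted p = 6.19e-07), and ATP5PO of -0.25 ± 0.03 and -0.27 ± 0.03 (adjusted p = 1.15e-07 and adjusted p = 5.59e-08).

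The head and central stalk of the ATP synthase changed less evenly. ATP5F1B, the catalytic beta subunit (NM_001686; chromosome 12, 56638175 to 56645984), measured 1389, 1332 and 1377 CPM in EP300 KD1 libraries, against 1446, 1393 and 1424 CPM in NS1 libraries, and 1304, 1274 and 1318 CPM in EP300 KD2 libraries, against 1452, 1466 and 1485 CPM in NS2 libraries. Its fall was slight with the first hairpin (-0.06 ± 0.02, adjusted p = 0.0295) and larger with the second (-0.18 ± 0.02, adjusted p = 1.16e-06). The first call ended without NS1 replicate 1, NS1 replicate 3 or EP300 KD1 replicate 2 (-0.05, -0.05 and -0.04, adjusted p = 0.122, 0.0706 and 0.136), and with upper-quartile factors, no filter or the length trend removed (adjusted p between 0.0609 and 0.139). ATP5F1A, the alpha subunit, had log2 changes of -0.11 ± 0.03 and -0.19 ± 0.03 (adjusted p = 0.00217 and adjusted p = 5.28e-06). ATP5F1D, the delta subunit of the central stalk (NM_001687; chromosome 19, 1241751 to 1244825), showed the opposite order and measured 54.2, 60.7 and 54.9 CPM in EP300 KD1 libraries, against 75, 67 and 78.2 CPM in NS1 libraries, and 63.4, 66 and 57.5 CPM in EP300 KD2 libraries, against 72.1, 65.2 and 67.3 CPM in NS2 libraries. It fell with the first hairpin (-0.38 ± 0.06, adjusted p = 1.37e-05) and did not pass with the second (-0.13 ± 0.06, adjusted p = 0.0701), where the groups overlapped. That second value passed without EP300 KD1 replicate 2 or EP300 KD2 replicate 2 (-0.13 and -0.17, adjusted p = 0.0484 and 0.0336), against both controls together (-0.18, adjusted p = 0.00383) and in a fit of the 6 libraries alone (-0.12, adjusted p = 0.0344). The hairpin difference (0.25 ± 0.08, adjusted p = 0.0165) did not pass without NS1 replicate 3 or EP300 KD2 replicate 2 (0.21 in both, adjusted p = 0.054 and 0.0526). ATP5MF, the f subunit of the membrane part, fell by 13.2% and 9.07%, although with library totals its second change was -0.07 (adjusted p = 0.0876). ATP5F1A, like ATP5MC3 below, is not covered by the naming rule and was picked with its values in view.

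Of the 3 genes of the c subunit, from which the rotor ring is built, 2 rose with the first hairpin against NS1, and none was called higher with the second against NS2. ATP5MC1, ATP5MC2 and ATP5MC3 encode the same mature protein behind different import signals. ATP5MC1 (NM_005175; chromosome 17, 48892787 to 48895871) measured 115, 114 and 117 CPM in EP300 KD1 libraries, against 97.9, 98.9 and 101 CPM in NS1 libraries, and 126, 130.0 and 136 CPM in EP300 KD2 libraries, against 128, 131 and 134 CPM in NS2 libraries. All EP300 KD1 libraries lay above NS1, and EP300 KD2 overlapped NS2. The log2 changes were 0.21 ± 0.03 (adjusted p = 5.65e-06) and -0.0058 ± 0.03 (adjusted p = 0.885), with a difference of -0.22 ± 0.04 (adjusted p = 0.000276). The controls also differed, since NS2 stood above NS1 by 0.40 ± 0.03 (adjusted p = 1.47e-08). Against both controls together the values were 0.01 (adjusted p = 0.658) for EP300 KD1 and 0.19 (adjusted p = 2.15e-06) for EP300 KD2, so that which hairpin showed a rise depended on the control.

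ATP5MC2 (NM_005176; chromosome 12, 53665170 to 53681423) was the one member called in opposite directions. It measured 217, 208 and 216 CPM in EP300 KD1 libraries, against 202, 194 and 205 CPM in NS1 libraries, and 190.2, 181 and 185 CPM in EP300 KD2 libraries, against 196, 193 and 194 CPM in NS2 libraries. EP300 KD1 lay above NS1 and EP300 KD2 below NS2 without overlap, with log2 changes of 0.09 ± 0.03 (adjusted p = 0.00574) and -0.07 ± 0.03 (adjusted p = 0.0348) and a difference of -0.16 ± 0.04 (adjusted p = 0.00162). The second call was marginal. It ended without NS1 replicate 3, any NS2 replicate, or EP300 KD2 replicate 2 or 3, and with RLE or upper-quartile factors, library totals, no filter or DESeq2 the change lay between -0.06 and -0.0021 (adjusted p between 0.0934 and 0.955). ATP5MC3, in contrast, fell with both hairpins, by 11.7% and 5.24% (adjusted p = 2.6e-05 and adjusted p = 0.0307).

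Between the hairpins, 14 members had a higher and 8 a lower change with EP300 KD2 than with EP300 KD1. Of all tested genes, 21.6% had a higher and 29.2% a lower change. The median difference over the members was 0.02. Of the 46 members lower with both hairpins, 33 were not called different between them. A further 12 members were called lower with the first hairpin alone and 6 with the second alone, and 7 were called by neither. The value was below 0 with both hairpins in 62 of the 72 members. The members with the largest differences were described above: NDUFA10, NDUFV1, NDUFB9, UQCRFS1, COX7B and ATP5F1D fell less with the second hairpin, and COX6B2, COX7C, ATP5MC1, COX6C, ATP5MC2 and ATP5F1B had lower changes with it. These counts depend on the scaling. With library totals alone 29 members had a higher and 4 a lower change with the second hairpin. TMM factors were near 1.03 in EP300 KD2 and between 0.979 and 0.996 in the other groups. Over all genes, 48.2% of the second hairpin's calls were higher with TMM, 58.0% after upper-quartile scaling and 61.3% when scaled by totals alone, and of the calls between hairpins 42.6% were higher with TMM and 54.8% with totals.

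**Figure D3:**
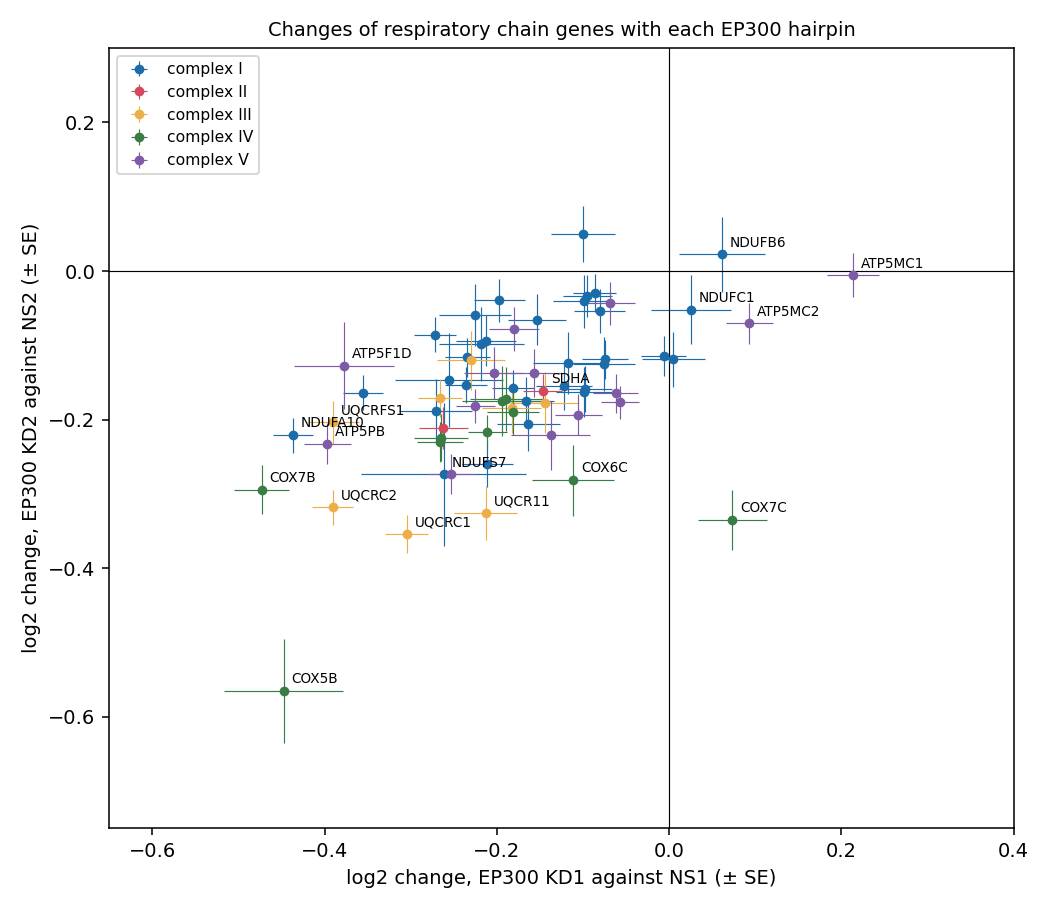
Log2 change with EP300 KD1 against NS1 (horizontal) and with EP300 KD2 against NS2 (vertical), each ± SE, for 66 respiratory chain genes of at least 1 CPM, coloured by complex. COX6B2 is left out because its change of -1.55 with the second hairpin lies off the axes. Most points lie below and left of 0, with COX5B lowest and ATP5MC1 farthest right.

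The controls were set against each other in the same way. In NS2, 19 members were lower and 2 higher than in NS1, where 13.4% of all tested genes were lower and 14.2% higher, and the members' median log2 change was -0.05. The 2 higher were ATP5MC1 and COX7C, given above. COX7B, COX6A1 and ATP5MF had the largest falls in NS2 by the naming rule, with -0.21 ± 0.03, -0.16 ± 0.05 and -0.16 ± 0.03 (adjusted p = 6.37e-05, adjusted p = 0.0142 and adjusted p = 0.00175). COX6A1 measured 104, 97.4 and 111 CPM in NS2 libraries, against 122, 108 and 119 CPM in NS1 libraries, and the groups overlapped. Its call ended without NS1 replicate 1, NS1 replicate 3 or NS2 replicate 2 (-0.13, -0.14 and -0.11, adjusted p = 0.0795, 0.063 and 0.0935) and with the length trend removed (-0.11, adjusted p = 0.0532). Without NS1 replicate 3 or NS2 replicate 2, 10 and 11 members were lower in NS2. This comparison shares its libraries with those of the hairpins, and its values stand beside theirs without a test of the relation.

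Genes around the respiratory chain were counted from lists chosen by function. In the citric acid cycle and pyruvate dehydrogenase, which supply its NADH and succinate, 15 of 18 tested rows (17 genes) fell and 1 rose with the first hairpin (median -0.21), and 10 fell and 1 rose with the second (median -0.09), where 32.3% and 29.9% of all tested rows were lower. MDH2, the mitochondrial malate dehydrogenase, had 2 of these rows. Its coding row fell with both hairpins (-0.33 and -0.26, adjusted p = 1.56e-10 and 6.89e-09), and its non-coding row was the one called higher with the second (0.51, adjusted p = 0.00641). SUCLG1, the alpha subunit of succinyl-CoA synthetase, measured 97.5, 97.3 and 99.2 CPM in EP300 KD1 libraries, against 128, 128 and 128 CPM in NS1 libraries, and 99.9, 101 and 108 CPM in EP300 KD2 libraries, against 130.2, 129 and 129 CPM in NS2 libraries. It was lower without overlap in both sets, with log2 changes of -0.39 ± 0.03 and -0.33 ± 0.03 (adjusted p = 5.86e-10 and adjusted p = 5.77e-09). IDH2, the mitochondrial NADP-linked isocitrate dehydrogenase, fell by 17.5% and 25.9%, and PDHA1, the E1 alpha subunit of pyruvate dehydrogenase, by 21.3% and 12%.

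Electron carriers, the adenine nucleotide carriers and other feeders of the chain fell in 10 of 11 tested genes with the first hairpin, with 0 higher (median -0.24), and in 5 with the second, with 1 higher (median -0.09). Over all tested rows, 32.3% were lower and 32.6% higher with the first hairpin, and 29.9% lower and 27.9% higher with the second. CYCS, the gene of somatic cytochrome c, measured 304, 284 and 307 CPM in EP300 KD1 libraries, against 379.6, 384 and 384 CPM in NS1 libraries, and 360.4, 347 and 378 CPM in EP300 KD2 libraries, against 371, 341 and 352 CPM in NS2 libraries. It fell with the first hairpin (-0.36 ± 0.03, adjusted p = 3.46e-08) and overlapped its control with the second (0.03 ± 0.03, adjusted p = 0.527), a difference that passed (0.38, adjusted p = 2.56e-06). DHODH, which hands electrons from pyrimidine synthesis to ubiquinone, showed the same pattern, with -0.53 ± 0.05 (adjusted p = 1.37e-08) and 0.04 ± 0.05 (adjusted p = 0.523). The electron transfer flavoproteins of fatty acid oxidation fell with both hairpins: ETFDH by 25.9% and 31.6%, ETFB by 12.2% and 29.8%, and ETFA by 15.1% and 16.6%.

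Assembly factors of complex I had 14 tested rows of 13 genes, of which 8 fell and 1 rose with the first hairpin (median -0.20) and 3 fell and 1 rose with the second (median -0.01). The gene with 2 rows, COA1, was called on 1 of them and with the first hairpin alone (-0.31, adjusted p = 0.000192), while its other row had 0.35 (adjusted p = 0.252). NDUFAF4 had log2 changes of -0.48 ± 0.05 and -0.12 ± 0.05 (adjusted p = 9.17e-08 and adjusted p = 0.0416). Of 32 tested assembly factors of complexes II to V, 14 fell and 5 rose with the first hairpin (median -0.09) and 9 fell and 5 rose with the second (median 0.01). With the first hairpin 32.3% of all tested rows were lower and 32.6% higher. With the second hairpin the lower share of both lists of factors did not exceed the 29.9% of all tested rows. Mitochondrial ribosomal proteins, which build the machine that translates the mitochondrially encoded subunits, fell in 52 of 72 tested rows (71 genes) and rose in 1 with the first hairpin (median -0.20), where 32.3% of all rows were lower. Neither of the rows of MRPS2, the gene with 2 rows, was called. With the second, 13 fell and 14 rose (median 0.03), against 29.9% lower and 27.9% higher over all rows. Of the 72 rows, 48 had a higher change with the second hairpin than with the first and 1 a lower one, where the shares over all rows were 21.6% and 29.2%. Cytosolic ribosomal proteins fell in 64 of 77 tested genes with the first hairpin, with 0 higher (median -0.17), and in 54 with the second, with 2 higher (median -0.13). This list was taken by symbol, so it also holds paralogues such as RPL22L1 and RPL39L, and RPS19BP1, named as a binding protein. Over all rows, 32.3% and 29.9% were lower. The respiratory chain genes were close to this list, with 58 and 52 of 72 lower and medians of -0.18 and -0.16, so a fall of this size was not particular to them. No test set these lists against the respiratory chain genes.

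**Figure D4:**
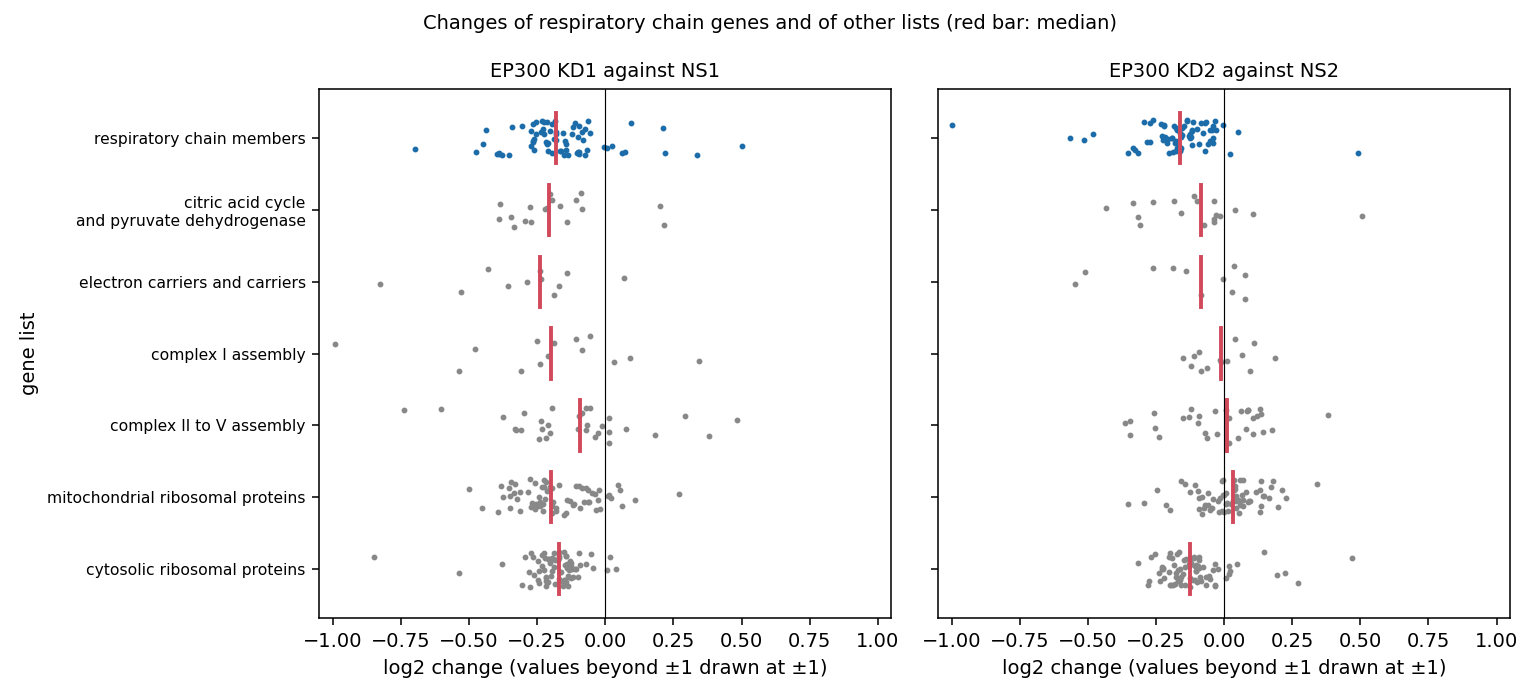
Log2 changes with EP300 KD1 against NS1 (left) and EP300 KD2 against NS2 (right) of the tested rows (points) of 7 lists, with the median of each list as a red bar and values beyond 1 drawn at the edge. The respiratory chain medians are -0.18 and -0.16, and the mitochondrial ribosomal medians are -0.20 with the first hairpin and 0.03 with the second.

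Among regulators of mitochondrial biogenesis, 7 of 14 tested genes fell and 1 rose with the first hairpin (median -0.11), and 4 fell and 3 rose with the second (median 0.01). Of all tested rows, 32.3% were lower and 32.6% higher with the first hairpin, and 29.9% lower and 27.9% higher with the second. PPARGC1A, the coactivator that raises respiratory gene transcription (NM_013261; chromosome 4, 23792021 to 24472905), was nearly lost. It measured 1.19, 0.86 and 0.755 CPM in EP300 KD1 libraries, against 17.4, 15.7 and 16.1 CPM in NS1 libraries, and 0.952, 0.797 and 0.71 CPM in EP300 KD2 libraries, against 14.7, 13.6 and 13.9 CPM in NS2 libraries. The shRNA libraries lay far below the controls in both sets, with log2 changes of -4.14 ± 0.12 (adjusted p = 3.17e-16) and -4.08 ± 0.12 (adjusted p = 6.6e-16), and no detectable difference between them (0.06 ± 0.20, adjusted p = 0.826). ESRRA, the nuclear receptor that PPARGC1A coactivates, measured 65.7, 66 and 67.4 CPM in EP300 KD1 libraries, against 86.8, 74 and 86.7 CPM in NS1 libraries, and 63.8, 59.9 and 56.8 CPM in EP300 KD2 libraries, against 89.4, 80.4 and 85.2 CPM in NS2 libraries. It fell with both hairpins (-0.32 ± 0.05 and -0.50 ± 0.05, adjusted p = 3.91e-05 and adjusted p = 2e-07). PPRC1, a relative of PPARGC1A, fell with the first hairpin (-0.29 ± 0.03, adjusted p = 7.81e-08) and not detectably with the second (0.0071 ± 0.03, adjusted p = 0.86), as did GABPB1, a subunit of the ETS factor GABP (-0.33 ± 0.05 and -0.03 ± 0.05, adjusted p = 1.66e-05 and adjusted p = 0.615). PPARGC1B, the closest relative of PPARGC1A, fell with the second hairpin alone (0.06 ± 0.03 and -0.24 ± 0.03, adjusted p = 0.0768 and adjusted p = 1.21e-06), and POLRMT, the mitochondrial RNA polymerase, rose with it (0.33 ± 0.05, adjusted p = 3.17e-05). The part of these regulators in the members' changes was not tested.

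The remaining 28 member rows did not pass the filter, and 5 tested rows averaged under 1 CPM, of which 0 were called with either hairpin. The tested rows under 1 CPM were those of NDUFA11, NDUFA5, NDUFA6, UQCRB and ATP5F1E, and those of NDUFA5 and UQCRB are non-coding. Rows of NDUFA2, NDUFA3, SDHC, SDHD, UQCR10, COX7A2, ATP5ME and ATP5MG held between 0 and 61 counts summed over all 12 libraries. These genes belong to complexes that every respiring cell builds, so their rows are read here as not counted rather than as silent genes. The 5 tested rows under 1 CPM are read in the same way, not as low or unchanged genes, although they remain among the 72 tested. Of the 86 member genes 10 had more than 1 row, and these 24 rows include most of those near 0. ATP5MGL, a copy of ATP5MG, had 3 counts in all.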

How the data were processed

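RNA sequencing libraries of MCF10AT cells, 12 in all, were used as deposited. Per the labels' protocols, Trizol was used to harvest RNA, and the kit was the strand-marking TruSeq mRNA kit of Illumina. Per the submitters' processing notes, reads were aligned with HISAT2 2.1.0 to hg38 and counted with featureCounts. For that step, neither version, annotation, strand nor multi-mapping option is given in the sources used here. Values deposited by the authors are raw counts per RefSeq accession. Symbols came from a RefSeq gene table (28134 of 29094 rows) and GENCODE (502), and 458 rows had none. Coordinates are those of the RefSeq table on GRCh38, and promoter windows are RefSeq's.

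Counts were filtered with filterByExpr, scaled by TMM and fitted with edgeR 4.0.16 (quasi-likelihood, 1 coefficient per group over 12 libraries, R 4.3.3), with adjustment over 13424 genes and a threshold of 0.05. Contrasts were each hairpin against the control of its number, their difference, and NS2 against NS1. SEs were derived from the test statistic. DESeq2 1.42.0, limma 3.58.1 (voom), other scalings, no filter, a replicate block, a length correction and pooled controls were tried, as was leaving out each library. Replicate pairs differed beyond sampling noise (chi-square 1.84 to 4.48 per degree of freedom), so all 12 were kept. The common biological coefficient of variation was 0.03. The code of the fit was run on counts simulated from its own means and spread, which checks the code and not the small changes reported here.

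The members, lists and tests were chosen with earlier results of these data known. Genes named were, by rule, those with the largest called changes per comparison among members of at least 1 CPM, the strongest in each complex, the isoforms of complex IV, all complex II genes, CYC1, UQCRH and UQCRHL, and the genes with the smallest p in each list. Exceptions are marked in the text. Single values of a few genes are not reported here, although the counts and medians of their lists include them.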

Additional observations from a re-analysis of the deposited data

Results flagged for a closer look

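The difference between the hairpins, EP300 KD2 against NS2 minus EP300 KD1 against NS1, passed edgeR's test (adjusted over all genes) for 22 members and for COXFA4 and COXFA4L2. Positive values are changes that were higher with EP300 KD2. In complex I these were 0.22 for NDUFA10, 0.12 for NDUFA9, 0.12 for NDUFAB1, 0.17 for NDUFB2, -0.11 for NDUFB8, 0.19 for NDUFB9, 0.15 for NDUFC2-KCTD14, 0.19 for NDUFV1 and 0.16 for NDUFV2. In complex III they were 0.095 for CYC1 and 0.19 for UQCRFS1. In complex IV they were -1.77 for COX6B2, -0.17 for COX6C, 0.18 for COX7B and -0.41 for COX7C, with -0.12 for COXFA4 and -1.95 for COXFA4L2. In complex V they were -0.12 for ATP5F1B, 0.25 for ATP5F1D, -0.22 for ATP5MC1, -0.16 for ATP5MC2, 0.10 for ATP5MC3, 0.16 for ATP5PB and -0.10 for ATP5PD. For the named genes among these, the difference of COX6C did not pass with DESeq2, RLE, upper-quartile or total scaling or no filter (adjusted p between 0.051 and 0.226), nor did that of COXFA4 (adjusted p between 0.0676 and 0.321). The difference of ATP5F1B did not pass with library totals or no filter (-0.05 and -0.07, adjusted p = 0.153 and 0.208), nor did that of CYC1 with the length trend removed (0.07, adjusted p = 0.0847). For CYC1 it ended when NS1 replicate 1 or 3, NS2 replicate 1, EP300 KD1 replicate 2 or 3, or EP300 KD2 replicate 2 or 3 was left out, with adjusted p between 0.0576 and 0.0893. For COX6C it ended without NS1 replicate 2 or 3, NS2 replicate 1 or 3, EP300 KD1 replicate 3 or EP300 KD2 replicate 2 (adjusted p between 0.0756 and 0.139), and for COXFA4 without NS1 replicate 2, NS2 replicate 2 or 3, EP300 KD1 replicate 1 or 3, or EP300 KD2 replicate 2 (adjusted p between 0.0608 and 0.0971). In COX7C, COX7B, ATP5MC1, NDUFA10, NDUFV2, UQCRFS1, ATP5MC3 and COXFA4 the controls were called different as well (0.31, -0.21, 0.40, -0.08, -0.12, -0.08, -0.11 and -0.13 for NS2 against NS1), and the difference includes that of the controls.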

How the results depend on the processing

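The members' median stayed below 0 with both hairpins under every alternative run. Upper-quartile factors gave medians of -0.16 and -0.11 for the first and second hairpin, RLE factors and DESeq2 -0.15 each for the second, library totals -0.093 and no filter -0.11 for the second. With both controls together the medians were -0.14 and -0.19. With the trend on transcript length removed they were -0.13 and -0.15 (44 and 49 members lower), and with the replicate block added -0.13 and -0.15. Members called higher with the first hairpin numbered 4 with the length trend removed, with or without the block, and 1 with both controls together. For the second hairpin 1 was higher with upper-quartile factors, library totals, no filter or both controls together. Fewest lower calls were 44 for the first hairpin, with the length trend removed, and 37 for the second, with library totals. For the difference between the hairpins, lower calls were 5 with RLE, upper-quartile and DESeq2, 4 with library totals or no filter, and 13 with the length trend removed and the block. Higher calls were 29 with totals, 26 with no filter and 9 with the length trend removed. The median difference was 0.039 with RLE, 0.0385 with DESeq2, 0.0499 with upper-quartile factors, 0.0875 with totals, 0.0814 with no filter, -0.0134 with the length trend removed and -0.0142 with the block added. For NS2 against NS1, 10 members were lower with the length trend removed, and the median was -0.0259 without and -0.026 with the block. Causes of these shifts were not tested.

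Leaving out 1 library at a time, lower calls ranged from 48 to 58 with the first hairpin, 47 to 54 with the second and 10 to 22 for NS2 against NS1, and higher calls from 2 to 3, 0 to 0 and 2 to 2. Medians ranged from -0.19 to -0.17, -0.16 to -0.15 and -0.07 to -0.04. For the difference, 9 to 16 were higher and 5 to 10 lower, with medians from -0.0009 to 0.0378. The lowest of these counts came without NS1 replicate 3 (9 higher) and without NS1 replicate 2 or EP300 KD1 replicate 3 (5 lower). Changed in sign and called were COX7C with EP300 KD1 (-0.0833) and ATP5MC1 with EP300 KD2 (0.19), both with both controls together. Neither had been called in the main fit. Counting COXFA4 and COXFA4L2 as members, chosen after seeing the data, moved no count of calls by over 1.5 times.

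Same-numbered libraries did not deviate together (correlations of -0.04 to 0.02 in 6 pairs, 0 over 0.1), so the numbers do not pair the samples. With the replicate block 58 members were lower and 3 higher with the first hairpin (median -0.18), 52 lower and 0 higher with the second (-0.16), 16 higher and 10 lower for the difference (0.02), and 21 lower and 2 higher for NS2 against NS1 (-0.05). The block brought the change of COX7C with EP300 KD1 past the threshold (0.075, adjusted p = 0.0124), the hairpin difference of UQCRC2 (0.0725, adjusted p = 0.0425) and UQCRH in NS2 against NS1 (-0.0688, adjusted p = 0.0419). Across named genes, comparisons and alternatives, 2803 results kept their status, whether called or not called, 124 lost a call and 47 gained one. A further 2, not called in the main fit, changed sign and passed. Depth limits genes near 1 CPM, such as COX6B2 and COXFA4L2.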
